A study of Mus musculus with 7 samples.

Results

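Transcripts of 30 lens genes were measured in mouse eye samples that differ in Agbl5, the gene of the tubulin deglutamylase CCP5. The genes were taken by name from a table of 54532 genes. They are 16 crystallins (2 alpha, 6 beta and 8 gamma), the fibre cell membrane and cytoskeleton genes Mip, Bfsp1, Bfsp2, Lim2, Gja3 and Lgsn, the transcription factor genes Hsf4, Foxe3, Pitx3, Maf and Sox1, and Tdrd7, Dnase2b and Birc7. All 30 names were found, each on 1 row. A mean of at least 1 FPKM (fragments per kilobase, scaled to the mapped total of a library) over the libraries was needed for a test, and 27 of the 30 reached it; Sox1, Dnase2b and Birc7 did not. That filter could be passed through high values in a few libraries alone.

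The series holds 7 polyadenylated RNA libraries, of which 3 are knockout, 2 heterozygous and 2 wildtype for Agbl5. The labels name the tissue as eyeball, while the extraction protocol speaks of retinal tissue, and neither gives the strain, the age, the allele or how the knockout was made. Nothing in the labels says that the libraries of a genotype come from separate animals, so p-values measure only the spread between these libraries, which may be technical. The heterozygous and wildtype libraries together form the 4 controls.

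The lens is a clear body of elongated fibre cells under a single layer of epithelium. Its fibres fill with crystallins: the alpha crystallins are small heat shock proteins that hold other proteins in solution, and the beta and gamma crystallins share a fold and make up much of the rest. In the mouse, the gamma crystallins Cryga to Crygf are known as products of embryonic and early postnatal fibres, and Crygs as the gamma crystallin of later fibres. Of the 30 genes, Cryab is also widely made outside the lens, and Maf and Tdrd7 are likewise not limited to it. 

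Sequences just before the transcription start were read from RefSeq windows on GRCm38.p6, which exist here for 27 of the 30 genes. Each window spans 250 bases before and 50 bases after the start. The first set shows 3 beta crystallin genes whose windows hold TGCTGA, the core of the recognition element of Maf family factors. Capitals mark TGCTGA. The Cryba1 stretch lies at chr11:77725294-77725413 (minus strand), that of Crybb1 at chr5:112255700-112255819 (plus strand) and that of Cryba4 at chr5:112252519-112252718 (minus strand).
Cryba1: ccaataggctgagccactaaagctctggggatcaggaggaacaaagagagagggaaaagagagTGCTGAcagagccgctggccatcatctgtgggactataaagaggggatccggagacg
Crybb1: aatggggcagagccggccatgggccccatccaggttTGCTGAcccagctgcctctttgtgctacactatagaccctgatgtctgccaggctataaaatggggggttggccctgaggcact
Cryba4: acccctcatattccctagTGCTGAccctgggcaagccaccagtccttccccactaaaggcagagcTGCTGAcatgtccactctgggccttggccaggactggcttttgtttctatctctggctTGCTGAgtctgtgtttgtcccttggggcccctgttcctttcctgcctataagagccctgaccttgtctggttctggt
Searched on both strands, TGCTGA was in 15 of the 30 windows of the 27 genes (50%), against 19.5% of all 32851 windows of the same length; Tdrd7 and Gja3 have several windows each. The 15 windows belong to 15 genes, which include Cryaa, 5 of the 6 beta crystallins (all but Crybb2), Mip and Lim2. CTTTGT, a core bound by Sox factors, was in 9 of the 30 (30% of them; 18.7% of all windows), and TATAAA, the TATA box, in 8 (26.7%; 13.6% of all). GAANNTTC, a heat shock element, was in 1, that of Dnase2b (3.33%; 7.86% of all). These matches describe letters in a window and are not shown to be bound.

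The second set shows the gamma crystallin genes Cryga to Crygf, because their levels separate the libraries described below. Of these, 5 lie together on chromosome 1 on the minus strand, with the starts of Crygd, Crygc, Crygb and Cryga at 12.3, 22.5, 31.1 and 52.2 kb from that of Cryge. Crygf lies 875.4 kb from Cryge on the plus strand. Capitals mark TTTGTG, the longest run that all 6 upstream windows share on the transcribed strand, which 9.39% of all windows hold on that strand. Its letters overlap those of CTTTGT, but only in Crygb, where a C precedes the run, is CTTTGT complete at this place. The run was picked after the sequences were seen. For Cryga (chr1:65103423-65103452), Crygb (chr1:65082341-65082370) and Crygc (chr1:65073579-65073608) only the 30 bases around it are printed. The stretch of Crygc lies in the first exon of a longer GENCODE transcript. For Crygd (chr1:65063441-65063560), Cryge (chr1:65051164-65051283) and Crygf (chr1:65926402-65926521) the 120 bases before the start are printed, since these 3 are the most alike.
Cryga: ccccaggcccctTTTGTGtggttcttgcca
Crygb: gaaatgggccccTTTGTGtgatttcctgtg
Crygc: ccgagggcccctTTTGTGcagttccgctaa
Crygd: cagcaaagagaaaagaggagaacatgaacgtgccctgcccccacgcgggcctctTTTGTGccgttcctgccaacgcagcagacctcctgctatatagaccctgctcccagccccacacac
Cryge: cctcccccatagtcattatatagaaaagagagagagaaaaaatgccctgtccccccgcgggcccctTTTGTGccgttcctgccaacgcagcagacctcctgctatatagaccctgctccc
Crygf: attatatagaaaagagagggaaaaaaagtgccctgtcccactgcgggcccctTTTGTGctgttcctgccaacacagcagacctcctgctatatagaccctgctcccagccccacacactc
Crygd and Cryge share an unbroken run of 56 bases before their starts, Cryge and Crygf one of 52 bases, and Crygd, Cryge and Crygf together one of 33 bases. Their transcripts are alike too: aligned end to end, those of Cryge and Crygf were 95.1% identical and those of Crygd and Cryge 84.8%. How the authors' counting treated reads that fit several of these genes is not given in the sources used here, so the split between them is uncertain. Of all stretches of 50 bases in a transcript, 56.9% in Cryge, 34.9% in Crygf and 34.0% in Crygd also occur in another of the 6, against 5.73% in Cryga.

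Across the libraries, 12244907 to 14339861 reads on genes could be recovered from the deposited FPKM values, and 1 read on 1 kb of exon was worth 0.06631 to 0.07662 FPKM. Agbl5 itself held 1020 and 911 reads in wildtype, 419 and 492 in heterozygous and 143, 172 and 122 in knockout 1, 2 and 3, in the order of the labels (without strand, reads from Ost4, whose exons overlap, cannot be set apart). In knockout against wildtype its log2 change was -2.03 with an SE of 0.13 (adjusted p = 0.004064, limma). Both libraries that stand out below for lens transcripts, heterozygous 1 and knockout 1, thus carried the Agbl5 level of their label. They are singled out by the level of these very genes, so their difference from the other 5 libraries is described without a test.

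Most crystallins, Mip, Bfsp1, Bfsp2, Lim2 and Gja3 were high in 2 libraries, heterozygous 1 and knockout 1, and low in the other 5. Cryga, Cryge and Crygf were far higher in heterozygous 1 than in knockout 1. The comparison of these libraries is the one the genes were chosen for, so it is a description. The 16 crystallins summed to 5420 and 8501 FPKM in heterozygous 1 and knockout 1. In wildtype 1 and 2 they summed to 91.19 and 34.5 FPKM, in heterozygous 2 to 41.17 FPKM, and in knockout 2 and 3 to 28.78 and 49.36 FPKM. As a share of all recovered reads this was 0.966% in heterozygous 1 and 1.516% in knockout 1, and between 0.00437% and 0.0135% in the others. The read shares rest on an exon length fitted for Cryaa and are uncertain to that extent. Each of those 2 libraries was over 10 times the highest of the other 5 for 21 of the 27 tested genes, against 28 of all 15472 tested genes (0.181%). Cryga counts among the 21 only because it is at 0 in the other 5; the number was 20 without it. The 6 that fell short were Cryge, Crygf, Lgsn, Hsf4, Maf and Tdrd7. Both libraries were above the highest of the other 5 for 26 of the 27 (6.86% of all tested genes), with Tdrd7 as the exception. In bulk samples, fewer lens cells and less RNA per lens cell cannot be told apart.

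**Figure D1:**
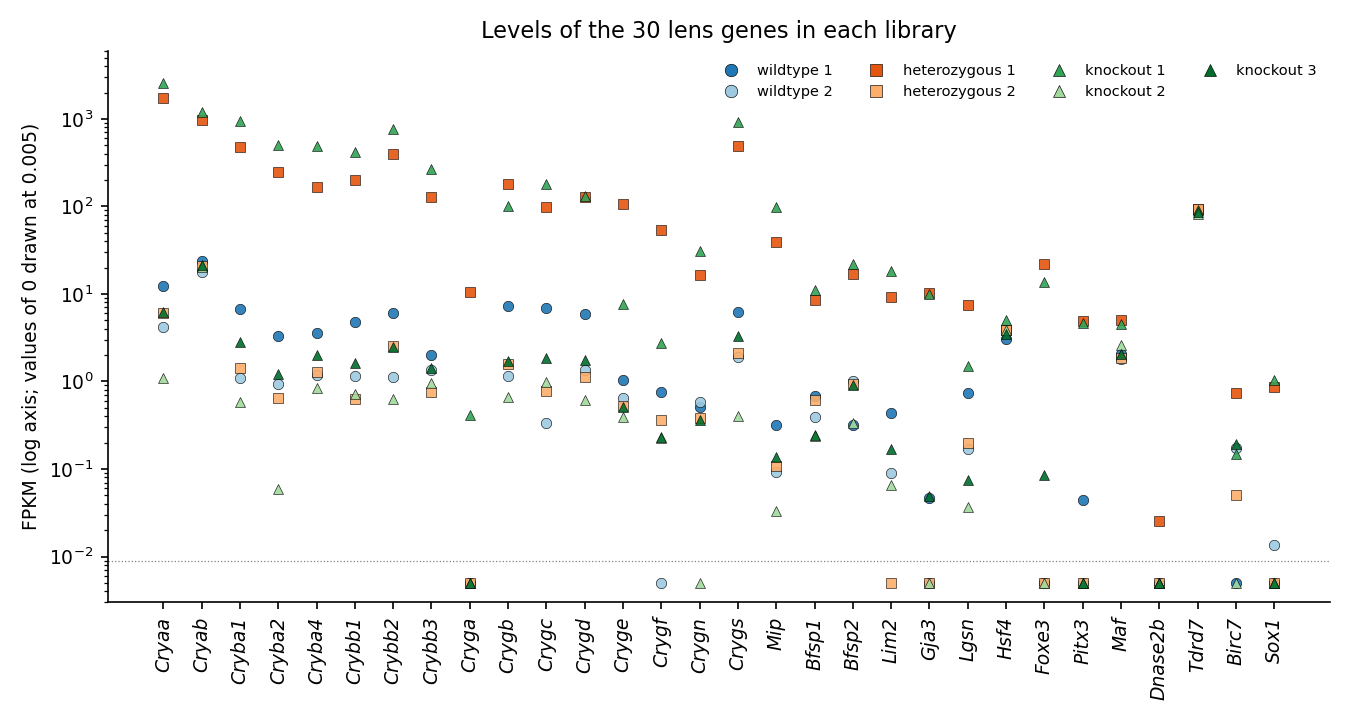
FPKM of each of the 30 lens genes (horizontal axis, grouped by class) in each of the 7 libraries, on a log axis, with values of 0 drawn below the dotted line. Squares in dark orange (heterozygous 1) and triangles in mid green (knockout 1) sit above the other 5 libraries in 26 of the 27 tested genes; for Tdrd7 and Hsf4 all 7 points lie close together.

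Of the alpha crystallins, Cryaa (ENSMUSG00000024041, chromosome 17, 31677807 to 31681733 plus strand, GRCm38), a chaperone of the lens, was the most abundant of the 30 genes in both rich libraries. It stood at 1733 and 2541 FPKM in heterozygous 1 and knockout 1. In wildtype 1 and 2 it was at 12.3 and 4.151 FPKM, in heterozygous 2 at 5.995 FPKM, and in knockout 2 and 3 at 1.109 and 6.294 FPKM. The lowest and the highest of these 5 differed by 11.09 times, so the low libraries were not alike.

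Cryab (chromosome 9, 50751325 to 50756636, plus strand), the widely made partner of Cryaa, behaved differently among the low libraries. It stood at 976.3 and 1196 FPKM in heterozygous 1 and knockout 1, and at 23.85, 17.58, 21.03, 20.56 and 21.66 FPKM in wildtype 1, wildtype 2, heterozygous 2, knockout 2 and knockout 3. The highest of these 5 was only 1.357 times the lowest. Cryab was 56.33% of Cryaa in heterozygous 1 and 47.06% in knockout 1, on the FPKM scale, whereas in the other 5 libraries it exceeded Cryaa, at 193.9% to 1853%. Exons of Hspb2, read from the other strand, overlap Cryab over 252 bases.

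The 6 beta crystallins were each higher in knockout 1 than in heterozygous 1. Cryba1 (chromosome 11, 77718615 to 77725283, minus strand) stood at 480.7 and 948.3 FPKM in heterozygous 1 and knockout 1. Its levels elsewhere were 6.777 and 1.082 FPKM in wildtype 1 and 2, 1.442 FPKM in heterozygous 2, and 0.5781 and 2.844 FPKM in knockout 2 and 3. The 2 groups of libraries do not come near each other, and wildtype 1 is again the highest of the low ones.

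Crybb2 (chromosome 5, 113058258 to 113070117, minus strand) was at 396.6 and 759.0 FPKM in heterozygous 1 and knockout 1. It was at 6.015 and 1.121 FPKM in wildtype 1 and 2, 2.551 FPKM in heterozygous 2, and 0.6341 and 2.471 FPKM in knockout 2 and 3. Crybb1, Crybb3 and Cryba4 lie on the same chromosome. The remaining 4 beta crystallins ranged from 128.5 FPKM (Crybb3) to 245.3 FPKM (Cryba2) in heterozygous 1, from 266.4 FPKM (Crybb3) to 498.7 FPKM (Cryba2) in knockout 1, and from 0.05941 FPKM (Cryba2, 1 read in knockout 2) to 4.79 FPKM (Crybb1, wildtype 1) elsewhere.

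Among the gamma crystallins, Crygs (chromosome 16, 22805203 to 22811577, minus strand) was the most abundant in both rich libraries and followed the beta crystallins. It stood at 494.9 and 927.8 FPKM in heterozygous 1 and knockout 1. The other libraries had 6.251 and 1.895 FPKM in wildtype 1 and 2, 2.101 FPKM in heterozygous 2, and 0.405 and 3.343 FPKM in knockout 2 and 3. Crygn, a more distant relative, was lower, with 16.51 and 30.92 FPKM in heterozygous 1 and knockout 1 and at most 0.5788 FPKM elsewhere.

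In the chromosome 1 cluster, Cryge, Crygf and Cryga did not follow Crygs. Cryge was at 106.1 FPKM (1084 reads) in heterozygous 1 and only 7.737 FPKM (74 reads) in knockout 1, and at 1.04, 0.642, 0.5298, 0.3921 and 0.5057 FPKM in wildtype 1, wildtype 2, heterozygous 2, knockout 2 and knockout 3. Crygf was at 53.86 FPKM (477 reads) in heterozygous 1 and 2.773 FPKM (23 reads) in knockout 1. In the other 5 libraries Crygf had from 0 to 7 reads. For both genes heterozygous 1 stands apart from all the others, and knockout 1 lies nearer to the low libraries than to heterozygous 1 in FPKM.

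Cryga had 109 reads in heterozygous 1, 4 reads in knockout 1 and 0 in each of the other 5, where a count of 0 allows up to 3 reads. Against that allowance, which is 0.273 to 0.315 FPKM per library, the 10.57 FPKM of heterozygous 1 was at least 33.6-fold higher. Knockout 1, at 0.4142 FPKM, lies just above that allowance. Exons of Gm28845 overlap Cryga over 350 bases on the same strand.

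Of the other 3, Crygc was near Crygs in its ratio between the rich libraries, and Crygb and Crygd lay between the patterns. Crygb stood at 178.1 and 100.4 FPKM in heterozygous 1 and knockout 1, Crygc at 99.08 and 180.5 FPKM, and Crygd at 129.2 and 132.3 FPKM. Their levels in wildtype 1 were 7.225, 6.959 and 5.853 FPKM, and in the other 4 libraries they ran from 0.3375 FPKM (Crygc, wildtype 2) to 1.861 FPKM (Crygc, knockout 3). So of the 6 genes, 1 was higher in knockout 1, 1 was level and 4 were lower there. Of the summed FPKM of Cryga to Crygf, the 3 genes Cryga, Cryge and Crygf made up 29.56% in heterozygous 1 and 2.576% in knockout 1. The same share was 8.258% and 18.42% in wildtype 1 and 2, 20.54% in heterozygous 2, and 21.31% and 12.1% in knockout 2 and 3, from few reads.

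**Figure D2:**
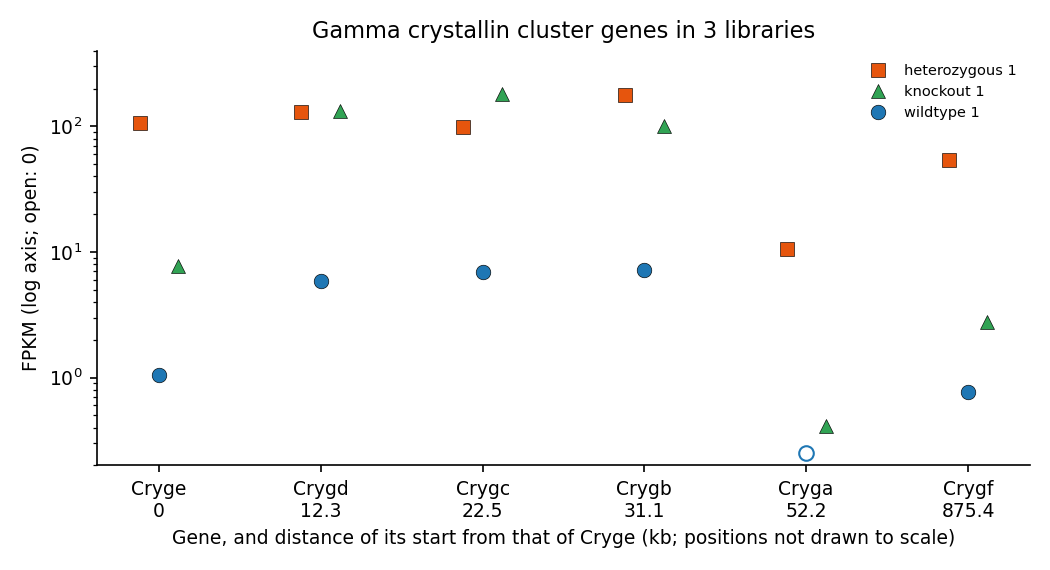
FPKM (log axis) of the 6 gamma crystallin genes in order along chromosome 1, with the distance of each start from that of Cryge in kb under its name and not drawn to scale, in heterozygous 1, knockout 1 and wildtype 1. Knockout 1 falls below heterozygous 1 for Cryge, Crygb, Cryga and Crygf, sits level for Crygd and lies above it for Crygc; the open circle is a value of 0.

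The ratio of knockout 1 to heterozygous 1 puts all members on 1 scale. It is given with a 95% exact interval (Clopper-Pearson, conditional on the summed reads) that covers counting error only, since each side is a single library. The median over the 27 tested genes was 1.303, and 1.002 over all tested genes above 0 in heterozygous 1. The ratio was over 1.5 for 11 of the 27 (8.61% of all tested genes), the other way round for 6 (4.96%), and between these for 10.

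The upper end was made of beta crystallins and the fibre water channel. Cryba4 had the highest ratio, 2.923 (2.776 to 3.078). Mip, which encodes the fibre water channel aquaporin 0, followed with 2.514 (2.348 to 2.693). The other 5 beta crystallins lay close together, between 1.914 (Crybb2; 1.87 to 1.958) and 2.073 (Crybb3; 1.998 to 2.152). Crygs (1.875; 1.817 to 1.935), Crygn (1.873; 1.56 to 2.253), Crygc (1.822; 1.69 to 1.964) and Lim2 (1.965; 1.699 to 2.276) were near them. Cryaa, at 1.466, and Cryab, at 1.225, were below all 6 beta crystallins.

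The lower end held Cryga (0.03918; 0.01049 to 0.1032), Crygf (0.05148; 0.03232 to 0.07817), Cryge (0.07289; 0.05679 to 0.09229) and Lgsn (0.1989; 0.1368 to 0.2823). Lgsn encodes lengsin, a lens relative of glutamine synthetase. These 4 intervals do not reach the interval of any other tested member. Heterozygous 1 was over 10 times knockout 1 for 3 of the 27, Cryga, Cryge and Crygf, and for 0.291% of all tested genes. Cryga, Crygf and Lgsn reached the mean of 1 FPKM only through heterozygous 1, so counts that hold them are descriptions. Crygb (0.5637; 0.5179 to 0.6131) and Foxe3 (0.6318; 0.5156 to 0.772), the gene of a forkhead factor of the lens epithelium, complete the 6.

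**Figure D3:**
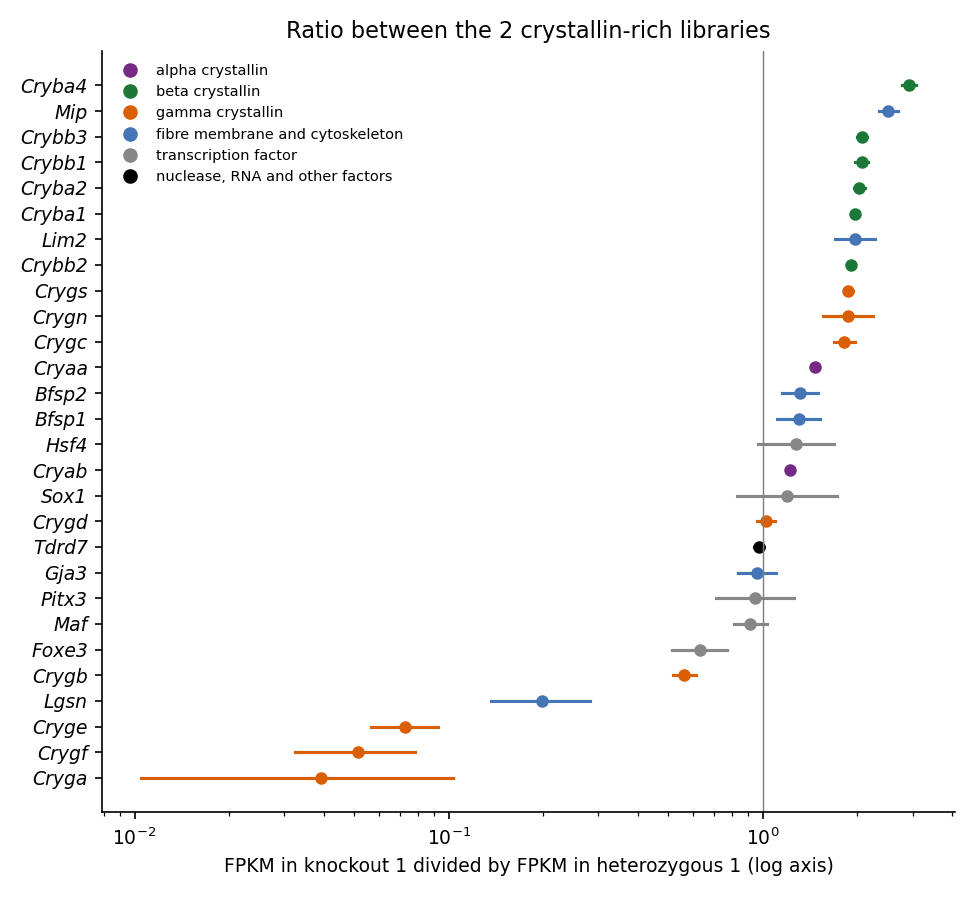
FPKM in knockout 1 divided by FPKM in heterozygous 1 (log axis), coloured by class, with 95% counting intervals. Each lens gene with at least 50 reads over both libraries is shown. The interval drawn for Cryaa rests on its fitted exon length of 2556 bases and is uncertain. Beta crystallins and Mip lie at 1.914 to 2.923, and Cryga, Crygf and Cryge lie below 0.1; the vertical line marks equal levels.

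The makeup of the crystallin pool differed between the rich libraries accordingly. By FPKM, the alpha crystallins made up 50% of it in heterozygous 1 and 43.95% in knockout 1, the beta crystallins 29.92% and 39.78%, and the gamma crystallins 20.08% and 16.27%. Crygs was 45.47% of the gamma crystallins in heterozygous 1 and 67.09% in knockout 1. By reads in place of FPKM, which weights long transcripts more, the gamma share was 9.591% and 8.162%. The read-based shares rest on the fitted length of Cryaa, which alone gave 62580 of the 130787 crystallin reads of heterozygous 1, and are uncertain to that extent. In the 5 low libraries Cryab alone was between 26.16% (wildtype 1) and 71.43% (knockout 2) of the pool, against 18.01% in heterozygous 1 and 14.06% in knockout 1.

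**Figure D4:**
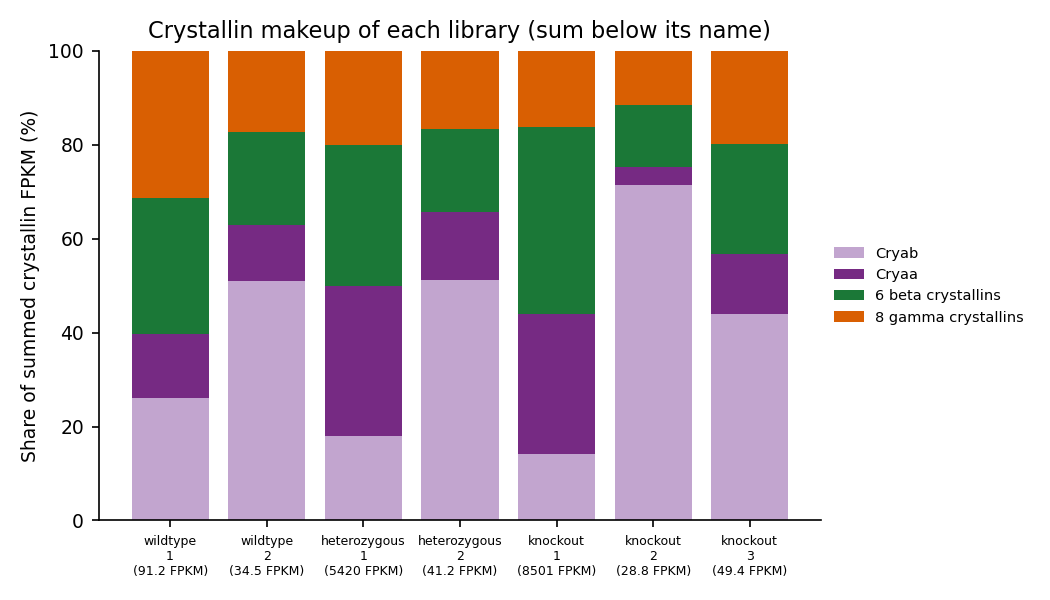
Share of Cryab, Cryaa, the 6 beta and the 8 gamma crystallins in the summed crystallin FPKM of each library (percent), with the sum under each name. Cryab takes 18.01% and 14.06% in heterozygous 1 and knockout 1 and 26.16% to 71.43% in the other 5.

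The low libraries also differed among themselves. Of the 26 tested members above 0 in any of these 5, wildtype 1 was the highest for 19. Knockout 2 alone was the lowest for 14 tested members. These counts were not made over all tested genes, so an order particular to the lens genes is not shown. As a percentage of the heterozygous 1 level, wildtype 1 reached 0.71% for Cryaa, 2.371% for Crybb1, 4.057% for Crygb, 4.53% for Crygd and 7.024% for Crygc. Cryge, in the same cluster, reached 0.98%. Relative to Cryaa, each of the 5 low libraries held more of Crygb, Crygc and Crygd than heterozygous 1 did (10.28%, 5.716% and 7.454% of Cryaa). The 3 shares were 58.72%, 56.55% and 47.57% in wildtype 1, from 67, 80 and 88 reads. Over the other 4, Crygb ran from 26.21% to 60.47% and Crygc from 8.13% to 89.43%. Crygd ran from 18.65% to 55.94%, and each gene had 4 to 25 reads a library. A higher ratio to Cryaa was not particular to these 3 genes. Crygs was at 35.05% to 53.11% of Cryaa in the low libraries, against 28.55% in heterozygous 1. Cryab, Crybb2, Cryba4, Crybb3 and Bfsp1 likewise exceeded their heterozygous 1 ratio in all 5, while Cryba1 and Mip, among others, did not. Cryaa, the divisor, was itself at only 1.109 to 12.3 FPKM there.

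The fibre membrane and cytoskeleton genes showed the same 2 rich libraries. Mip (chromosome 10, 128225838 to 128231812, plus strand) was at 39.03 and 98.12 FPKM in heterozygous 1 and knockout 1. It was at 0.3189, 0.09279, 0.1072, 0.03306 and 0.1364 FPKM in wildtype 1, wildtype 2, heterozygous 2, knockout 2 and knockout 3, which is 10, 3, 3, 1 and 4 reads. Gm26847, on the other strand, overlaps 1223 bases of Mip and showed the same 2 high libraries, at 4.196 and 8.71 FPKM. Without strand, reads of both genes over these bases cannot be set apart.

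Bfsp1 and Bfsp2, which encode the beaded filament proteins of the fibre cytoskeleton, stood less far above the low libraries than Mip did. Bfsp1 was at 8.62 and 11.23 FPKM in heterozygous 1 and knockout 1 and between 0.2373 and 0.6866 FPKM elsewhere. Bfsp2 was at 16.68 and 21.9 FPKM, and between 0.3221 and 1.015 FPKM elsewhere. Their ratios between the rich libraries were alike, 1.303 (1.112 to 1.526) and 1.313 (1.149 to 1.502), with intervals that overlap nearly throughout.

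Gja3, the gene of the fibre gap junction protein connexin 46, had 432 and 387 reads in heterozygous 1 and knockout 1 and at most 2 elsewhere. Lim2, which encodes the fibre membrane protein MP20, had 288 and 530 reads there and 0 to 14 elsewhere. Lgsn had 204 and 38 reads, and 21 in wildtype 1 against 1 to 5 in the remaining 4. At 1.483 FPKM in knockout 1, Lgsn was 2.001 times the wildtype 1 level of 0.7413 FPKM.

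The transcription factor genes split in 2. Foxe3 had 267 and 158 reads in heterozygous 1 and knockout 1 and 1 read, in knockout 3, among the other 5. Pitx3, a homeobox factor of lens epithelium and fibres, had 107 and 95 reads there and 1 read, in wildtype 1, elsewhere. Sox1, an activator of gamma crystallin genes, had 59 and 66 reads there and 1 read, in wildtype 2, elsewhere. These 3 genes were thus close to absent from the 5 low libraries.

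Maf, whose factor binds crystallin promoters, was detected in every library. It was at 4.991 and 4.559 FPKM in heterozygous 1 and knockout 1, and at 2.041, 1.818, 1.859, 2.64 and 2.076 FPKM in wildtype 1, wildtype 2, heterozygous 2, knockout 2 and knockout 3. The rich libraries were 1.89 and 1.727 times the highest of the others. Hsf4, a heat shock factor needed in fibre cells, ran from 3.081 FPKM in wildtype 1 to 5.002 FPKM in knockout 1, with heterozygous 1 at 3.918 FPKM beside heterozygous 2 at 3.89 FPKM.

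Tdrd7, a component of RNA granules whose loss is known to give cataract, did not follow the crystallins. It stood at 86.58 and 87.45 FPKM in wildtype 1 and 2, 93.84 and 93.71 FPKM in heterozygous 1 and 2, and 91.43, 82.32 and 86.15 FPKM in knockout 1, 2 and 3. Dnase2b, which encodes the nuclease that degrades fibre cell DNA, had 1 read in heterozygous 1 and 0 in the other 6 libraries. Birc7, an inhibitor of apoptosis, had 16 reads in heterozygous 1, 3 in knockout 1 and 0 to 4 elsewhere.

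Set against genotype, no tested lens gene was called, and these fits could hardly call the crystallins. With limma on log2(FPKM + 1), with p-values adjusted by the Benjamini-Hochberg method over all 15472 genes, 0 of the 27 tested members passed 0.05 in knockout against wildtype, where 0.323% of all tested genes did. The count was also 0 in knockout against heterozygous (0.317% of all) and in heterozygous against wildtype (0.0% of all). It was 0 as well in knockout against all 4 controls (0.614% of all). So few genes were called at all that 0 of 27 lies near these shares and is no result about the lens genes. With an SE of 2.85 to 3.74 log2 units for Cryaa, only a very large change could be called. No member had an unadjusted p under 0.05 in these 4 comparisons, and voom on the recovered reads called 0 as well. The comparisons share libraries and are therefore not independent. Without heterozygous 2, Cryga was 1 of 40 genes of 15472 that passed in knockout against heterozygous (-3.37, limma, adjusted p = 0.03088). In that fit heterozygous 1, through which alone Cryga reached the filter, is the lone heterozygous library and is assumed to vary like the others, so nothing is drawn from this value.

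The fold changes of the leading genes came with large errors. For Cryaa the log2 change was 2.04 ± 3.42 (SE) in knockout against wildtype, -1.70 ± 3.42 in knockout against heterozygous, 3.73 ± 3.74 in heterozygous against wildtype and 0.17 ± 2.85 in knockout against controls (adjusted p = 0.9213, 0.8644, 0.9737 and 0.9879 with limma). In the same order Cryab changed by 1.96 ± 2.17, -0.81 ± 2.17, 2.77 ± 2.37 and 0.57 ± 1.85. Knockout against wildtype gave 2.16 ± 3.20 for Cryba1, 2.08 ± 3.00 for Crybb2, 1.96 ± 3.14 for Crygs and 2.02 ± 2.30 for Mip. Against all controls the same 4 gave 0.61 ± 2.63, 0.44 ± 2.51, 0.41 ± 2.59 and 0.79 ± 1.92. Without knockout 1, knockout lay below wildtype for Cryaa (-1.08), Cryba1 (-0.71), Crybb2 (-0.70), Crygs (-0.89) and Mip (-0.15), so the direction of these 5 genes in that comparison turned with knockout 1. None of these values was called.

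Medians over the 27 tested members were 1.20, -0.60, 2.26 and 0.28 in the same 4 comparisons, against -0.0034, 0.0061, -0.0068 and 0.0027 over all tested genes. These medians include heterozygous 1 and knockout 1, which are singled out by the level of the same genes. They are a description and do not show a shift of the lens genes with genotype. Groups did not overlap for 1 member in knockout against wildtype (Maf, higher; 28.2% of all tested genes), 1 in knockout against heterozygous (Tdrd7, lower; 29.8%), 2 in heterozygous against wildtype (Hsf4 and Tdrd7, higher; 30%) and 0 in knockout against controls (13.0%). Maf changed by 0.44 ± 0.36 against wildtype (limma, adjusted p = 0.8447). Tdrd7 changed by -0.11 ± 0.06 against heterozygous (limma, adjusted p = 0.5001). Neither passed the test.

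Other lens genes were examined from lists that do not overlap the 30. Of 15 further structural and fibre genes, 11 were tested and 0 passed in any of the 4 comparisons (0.0% to 0.614% of all tested genes). Their medians were 0.13, -0.08, 0.17 and 0.11. Grifin, a lens galectin-like gene, was at 24.37 and 46.37 FPKM in heterozygous 1 and knockout 1 and at most 0.5577 FPKM elsewhere. It is therefore high in the same 2 libraries. Of 15 regulators of lens development, among them Pax6, Prox1, Six3 and Sox2, all 15 were tested and 0 passed. Both rich libraries were above the other 5 for some of the 15, among them Rbm24, Celf1, Cdkn1c and Epha2. Rbm24, an RNA binding protein gene, was at 3.853 and 3.594 FPKM there and at most 1.975 FPKM elsewhere, and Cdkn1c, a cell cycle inhibitor gene, at 8.75 and 9.343 FPKM there and at most 5.667 FPKM elsewhere. Neither was above them for 4 of the 15, among them Pax6, also a gene of retinal neurons, at 30.1 to 32.72 FPKM over all 7 libraries.

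Among 7 further genes that carry the crystallin name but are not among the main lens crystallins, 5 were tested. Crym, which encodes a thyroid hormone binding protein, was the 1 that passed, higher in knockout in all 3 knockout comparisons. Of all tested genes, 0.323% passed against wildtype, 0.317% against heterozygous and 0.614% against all controls. The 3 comparisons share the knockout libraries. With the replicate number as a block, 0 of 15472 genes passed in knockout against heterozygous, so Crym did not pass there. It stood at 13.23 and 11.67 FPKM in wildtype, 12.53 and 11.43 FPKM in heterozygous, and 23.85, 27.8 and 21.97 FPKM in knockout libraries. The log2 change was 0.92 ± 0.11 against wildtype (limma, adjusted p = 0.03687) and 0.95 ± 0.09 against all controls (adjusted p = 0.003297). It did not follow the lens genes: heterozygous 1, rich in lens transcripts, had a Crym level within the range of the other controls.

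Markers of other eye tissues were summed in each library. The 8 pigment epithelium and melanocyte genes summed to 225.5 and 251.1 FPKM in heterozygous 1 and knockout 1, and to 38.08 to 143.0 FPKM in the other 5. Both rich libraries were above the others for 5 of the 8, the melanin and melanosome genes Tyr, Dct, Pmel, Mlana and Tyrp1. They were not for Rpe65, Best1 and Ttr: Rpe65 was at 6.662 and 12.78 FPKM there and at 12.89 FPKM in knockout 3. The 8 corneal epithelium genes summed to 6.352 and 8.993 FPKM, and to 1.292 to 5.609 FPKM elsewhere; both were above the others for 1 of the 8, Aldh3a1, at 3.755 and 3.036 FPKM there and at most 0.7496 FPKM elsewhere. Krt12, the defining corneal keratin, was at 0.2676 and 0.6531 FPKM there and from 0.1974 to 0.7014 FPKM elsewhere. The 6 stroma and sclera genes summed to 8.561 and 5.52 FPKM, and to 1.637 to 3.983 FPKM elsewhere. Both rich libraries were above the others for 4 of the 6, Col1a2, Col3a1, Dcn and Lum, with Dcn at 3.735 and 1.903 FPKM there and at most 1.772 FPKM elsewhere, while Kera, a gene of the corneal stroma, was at 0 in both rich libraries and in 3 of the other 5. For the 5 ciliary body and iris genes (38.68 to 58.49 FPKM over the 7 libraries) and the 5 red blood cell genes (31.09 to 68.6 FPKM), both rich libraries lay within the range of the others. The 7 muscle genes summed to 5.491 and 5.26 FPKM there and 4.326 to 5.261 FPKM elsewhere. The 9 photoreceptor genes summed to 11320 FPKM in heterozygous 1, 9522 FPKM in knockout 1 and 9252 to 10350 FPKM elsewhere. The part of these tissues in the lens gene levels was not tested.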

How the data were processed

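Polyadenylated RNA of 7 libraries was measured, and a single table of FPKM values per gene, deposited by the authors, was used. The submitters' processing notes name TopHat2 2.0.9, Bowtie2 2.0.6, HTSeq and DESeq and the builds mm10 and GRCm38; the part each played is not given in the sources used here. The kit, per the labels' protocols, does not mark strand. Multiplying FPKM by GENCODE M21 exon lengths gave whole reads for 96.8% of values above 0 (tolerance 0.01), so depth and counting intervals could be recovered; 54495 of 54532 gene identifiers were in GENCODE M21. For Cryaa that length gave no whole reads, and the only length up to 5000 bases that did, 2556, was used. The 15472 genes whose mean over the libraries reached 1 FPKM were tested with limma 3.58.1 (R 4.3.3; mean-variance trend, two-sided, all 7 libraries) on log2(FPKM + 1), with 4 residual degrees of freedom for 3 genotypes and 5 for knockout against controls. Log2 changes on that scale understate low genes. The code was tested on simulated data.

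The members, gene lists and marker lists were chosen with earlier results of these data known; the 10 lists beside the members were cell type markers and other lens genes. Values in every library were given for the most abundant members of each class and those least like Cryaa in their ratio between libraries, and fold changes for Cryaa, Cryab, Cryba1, Crybb2, Crygs, Mip, Maf and Tdrd7 and for members that passed. Promoter windows came from RefSeq (GRCm38.p6) and transcripts from GENCODE M21, globally aligned with Biopython 1.88. Alternatives were other scalings, pseudocount 0.1, filters of none and 5 FPKM, voom, a replicate block, libraries left out and, for class shares, reads in place of FPKM.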

Additional observations from a re-analysis of the deposited data

Results flagged for a closer look

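Heterozygous 1 is singled out in this text by these very genes, so the values here describe how far it lies from the other 3 of the 4 controls and test nothing. The gap passed Dixon's 95% critical value for 4 values for 7 of the 8 genes with fold changes above and for the crystallin sum. The measure was the gap between the highest library and the next, as a share of the whole range. It was 0.995 for Cryaa, 0.993 for Cryab, 0.988 for Cryba1, 0.988 for Crybb2, 0.991 for Crygs and 0.994 for Mip. For Maf, which is detected in every library, it was 0.93, and for the summed crystallins 0.989. Tdrd7 was not set apart, with a gap of 0.0178. Chance flags about 1 in 20 groups, but these genes move together in 1 library, so the 8 values describe 1 library.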

How the results depend on the processing

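The count of lens genes called was 0 under every alternative run in knockout against wildtype, heterozygous against wildtype and knockout against controls. In knockout against heterozygous it ran from 0 to 1 with 1 library left out, as given above for Cryga, and was otherwise 0. No fold change of the 8 genes was called in any alternative, and those that changed sign had limma adjusted p of 0.6465 to 0.9989, so the signs carry no call. Without knockout 1 and heterozygous 1, where heterozygous 2 is the lone heterozygous library and is assumed to vary like the others, knockout against wildtype gave -1.08 for Cryaa, -0.71 for Cryba1, -0.70 for Crybb2, -0.89 for Crygs and -0.15 for Mip. Knockout against heterozygous gave 0.0045 for Cryab, 0.012 for Cryba1 and 0.23 for Maf. Heterozygous against wildtype gave -0.24 for Cryaa, -0.72 for Cryba1, -0.12 for Crybb2, -0.56 for Crygs, -0.12 for Mip and -0.034 for Maf. Knockout against controls gave -0.997 for Cryaa, -0.47 for Cryba1, -0.66 for Crybb2, -0.70 for Crygs and -0.11 for Mip, and Cryaa there was -0.018 with a pseudocount of 0.1 and -0.093 with voom on recovered reads, which gave -0.028 for Crygs. With 1 library left out, knockout against wildtype ran from -1.08 to 4.04 for Cryaa, -0.71 to 3.91 for Cryba1, -0.70 to 3.74 for Crybb2, -0.89 to 3.79 for Crygs, -0.15 to 3.14 for Mip and -0.047 to 0.028 for Tdrd7. Knockout against heterozygous ran from -5.68 to 2.28 for Cryaa, -3.55 to 1.92 for Cryab, -4.75 to 2.88 for Cryba1, -4.61 to 2.20 for Crybb2, -4.80 to 2.52 for Crygs, -3.04 to 2.14 for Mip and -0.60 to 0.47 for Maf. Heterozygous against wildtype ran from -0.24 to 7.71 for Cryaa, -0.72 to 6.90 for Cryba1, -0.12 to 6.69 for Crybb2, -0.56 to 6.76 for Crygs, -0.12 to 5.06 for Mip and -0.03 to 1.03 for Maf. Knockout against controls ran from -2.94 to 2.17 for Cryaa, -1.35 to 1.95 for Cryab, -2.25 to 2.40 for Cryba1, -2.34 to 2.12 for Crybb2, -2.44 to 2.24 for Crygs, -1.38 to 2.06 for Mip and -0.057 to 0.45 for Maf. With the replicate number as a block, knockout against heterozygous gave 0.13 for Cryab, 0.17 for Cryba1, 0.60 for Mip and 0.12 for Maf, and the counts of lens genes called stayed at 0. Libraries with the same number did not all deviate together (correlations from -0.023 to 0.43), so the number is not taken to pair them; over all genes the block moved the count called from 50 to 3 in knockout against wildtype, 49 to 0 in knockout against heterozygous and 95 to 38 in knockout against controls. Scaling each library to the same FPKM sum shifted the median of all genes by -0.14 in knockout against wildtype and -0.10 in knockout against controls, and lowered the median ratio of knockout 1 to heterozygous 1 from 1.303 to 1.113. That ratio was 1.873 over members of at least 10 FPKM in both libraries. Without Cryga to Crygf, the alpha and beta shares were 55.95% and 33.49% in heterozygous 1 and 46.26% and 41.87% in knockout 1. By reads, the alpha and beta shares were 63.44% and 26.97% in heterozygous 1 and 56.88% and 34.96% in knockout 1, and without Cryab the gamma shares were 24.49% and 18.93%.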

Other observations

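Besides the 30 genes, further tested genes were over 10 times the highest of the other 5 libraries in both heterozygous 1 and knockout 1. They were found by their values and are given as a description. Among them were Grifin, Nid1, Srd5a2, Wnt7b, Gm43247 and Gm26847. Gm26847 overlaps Mip, and without strand its level cannot be taken as separate from that of Mip. Nid1, which encodes the basement membrane protein nidogen 1, was at 23.86 and 13.66 FPKM in heterozygous 1 and knockout 1, and between 0.4845 and 0.8056 FPKM elsewhere. Wnt7b, a Wnt ligand gene, was at 4.828 and 5.263 FPKM there and at most 0.05972 FPKM elsewhere. Srd5a2, a steroid reductase gene, was at 6.176 and 5.652 FPKM there and at most 0.4556 FPKM elsewhere.

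The recovered read numbers of Cryaa, at the length of 2556 bases, were 460 and 160 in wildtype 1 and 2, 62580 and 200 in heterozygous 1 and 2, and 85909, 40 and 220 in knockout 1, 2 and 3. Of these, 6 of 7 are multiples of 20. The counting interval of Cryaa is therefore not given in the text, and its FPKM values are as deposited.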
